A study of Mus musculus with 6 samples.

Results

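The autophagy and lysosome genes of an nCounter panel were described in the hypothalamus of *Fmr1* KO and WT female mice. The set was a list of 34 genes that covers the start of autophagosome formation, the conjugation of LC3 to membrane, cargo receptors, the removal of mitochondria and the lysosome. A gene was a member when its probe was among the 787 probes counted, which held for 29 of the 34. *Uvrag*, *Pik3c3*, *Atg12*, *Atg16l1* and *Gabarap* were not analysed here. In the nCounter assay, colour-coded probe pairs are hybridized to the RNA and counted directly, without amplification.

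The groups were 3 *Fmr1* KO females and 3 WT females, all 8 weeks of age and in diestrus, the quiet stage of the estrous cycle. The KO mice were FVB.129P2-Fmr1tm1Cgr/J, which carry a germline disruption of *Fmr1* in all cells, and the WT mice were congenic FVB controls. *Fmr1* encodes FMRP, an RNA-binding protein whose loss causes fragile X syndrome. Each mouse gave 50 ng of hypothalamic RNA and 1 lane of counts, with no pooling.

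Lane totals ranged from 165514 to 339934 counts in *Fmr1* KO and from 261019 to 303764 counts in WT. The authors multiplied each lane by 1 factor, and counts scaled in this way are called normalized counts here. The factors ranged from 0.767 to 1.72 in KO and from 0.922 to 0.997 in WT, and the factor of 1.72 belonged to KO replicate 2, the shallowest lane. A mean of 74 probes with mean raw counts under 10 came after scaling to 6.51, 15.75 and 6.59 in KO replicates 1 to 3, against 7.68, 7.29 and 6.93 in WT replicates 1 to 3. Scaled values of such low probes were thus highest in KO replicate 2. *Fmr1* KO mice occupied lanes 4 to 6 of the cartridge and WT mice lanes 1 to 3, which means that position on the cartridge and genotype cannot be told apart. No probe for *Fmr1* was analysed here, and the labels for genotype therefore had no check from its own transcript.

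Autophagy is the route by which a cell encloses proteins and organelles in a double membrane and delivers them to lysosomes. Kinase and lipid kinase complexes start the membrane, a ubiquitin-like conjugation system attaches LC3 family proteins to it, and cargo receptors tie ubiquitinated material to LC3. The finished autophagosome fuses with lysosomes, whose hydrolases work at the low pH set by a proton pump. In hypothalamic neurons that sense energy state, loss of essential autophagy genes in mice is known to change feeding and body weight. Many lysosome and autophagy genes share promoter sequences around CACGTG that are bound by TFEB and its relatives, the transcription factors of the lysosome programme.

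The promoters of members were therefore searched for CACGTG, which reads the same on both strands, and for the longer TCACGTGA that contains it. The windows were those of RefSeq (assembly GRCm38.p6), from 250 bases before to 50 bases after each annotated start, and 22 of the 29 members had at least 1 window in the table. CACGTG lay in a window of 9 of these 22 genes (40.9%), against 75 of the 617 panel genes with a window (12.2%) and 8.09% of 27025 genes in the table. By window the shares were 34.6% for members, 9.54% for the panel and 7.15% for the table. TCACGTGA lay in 3 of the 22 members (13.6%), 2.76% of the panel genes and 1.12% of all genes. The 10-letter form GTCACGTGAC, which contains both shorter motifs, lay in 0 of the 22 members, 0.648% of the panel genes and 0.37% of all genes. *Atg14*, *Atg3*, *Atg5*, *Atg7*, *Atp6v0e*, *Atp6v1a*, *Bnip3*, *Lamp1* and *Lgmn* held CACGTG. A match is a description of letters and not a bound site.

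The 4 stretches below are shown because they hold the most copies of CACGTG, in *Lamp1*, or the longer motif, in the other three. They are written 5′ to 3′ on the strand of the gene, with the motif in capitals.
Lamp1 promoter, chr8:13159089-13159162, plus strand: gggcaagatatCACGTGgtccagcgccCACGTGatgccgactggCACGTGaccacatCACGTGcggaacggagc
Atg3 promoter, chr16:45158724-45158774, plus strand: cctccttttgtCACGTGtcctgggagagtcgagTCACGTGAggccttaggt
Atp6v0e promoter, chr17:26676388-26676415, plus strand: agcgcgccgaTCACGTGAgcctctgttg
Atp6v1a promoter, chr16:44139374-44139401, minus strand: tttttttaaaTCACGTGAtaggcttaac

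The *Lamp1* stretch holds 4 copies within 74 bases and the *Atg3* stretch holds 2 copies within 51 bases.

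Whether any of these genes differed in level between *Fmr1* KO and WT was tested with edgeR's quasi-likelihood test on the raw counts, with p-values adjusted by the Benjamini-Hochberg method over all tested probes. Probes with raw counts over 20 in 3 or more of the 6 lanes were tested, a total of 601 probes that included 28 of the 29 members. No member passed an adjusted p of 0.05, against 5 of the 601 tested probes (0.832%). At an unadjusted p under 0.05, *Rb1cc1* was lower in KO, 1 of 28 members, against 2.83% of all tested probes. No member was higher in KO at that level, against 5.66% of all tested probes. Ratios of KO over WT means lay above 1.2 for 0 of 28 members, against 15.1% of all tested probes. A ratio below 0.8 was found for 1 of 28 members, *Vps4b*, against 3.49% of all tested probes. The share of members past each of these limits was therefore below or near the share over the whole panel. The panel holds more low counts: 337 of the 601 tested probes had under 200 normalized counts in WT, against 7 of the 28 members. Shares past the 2 ratio limits were not computed at matched counts.

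The log2 fold changes of the 28 members, KO over WT, had a median of -0.03 and ran between -0.38 and 0.22, with 11 above 0 and 17 below 0. Over all tested probes the median was 0.01, the range was -0.70 to 1.18, and 317 lay above 0 and 284 below 0. The mean levels in KO and WT were within 10% of each other for 21 of the 28 members, against 359 of the 601 tested probes. At 500 or more normalized counts in WT, this held for 14 of 16 members and 103 of 135 tested probes. The 95% intervals of the log2 fold change lay wholly between -0.5 and 0.5 for 25 of the 28 members, the exceptions being *Vps4b*, *Tcirg1* and *Atp6v0e*. The same held for 340 of the 601 tested probes. At 500 or more counts in WT, the intervals lay within these limits for 16 of 16 members and 122 of 135 tested probes. The members were on the whole well counted: 16 of the 28 had at least 500 normalized counts in WT. Among these 16 the median size of the log2 fold change was 0.04, with a median SE of 0.07, against 0.07 with a median SE of 0.08 for all 135 tested probes at that level. Among the 7 members under 200 counts the median size was 0.14 with a median SE of 0.15, against 0.14 with a median SE of 0.20 for the 337 such probes.

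**Figure D1:**
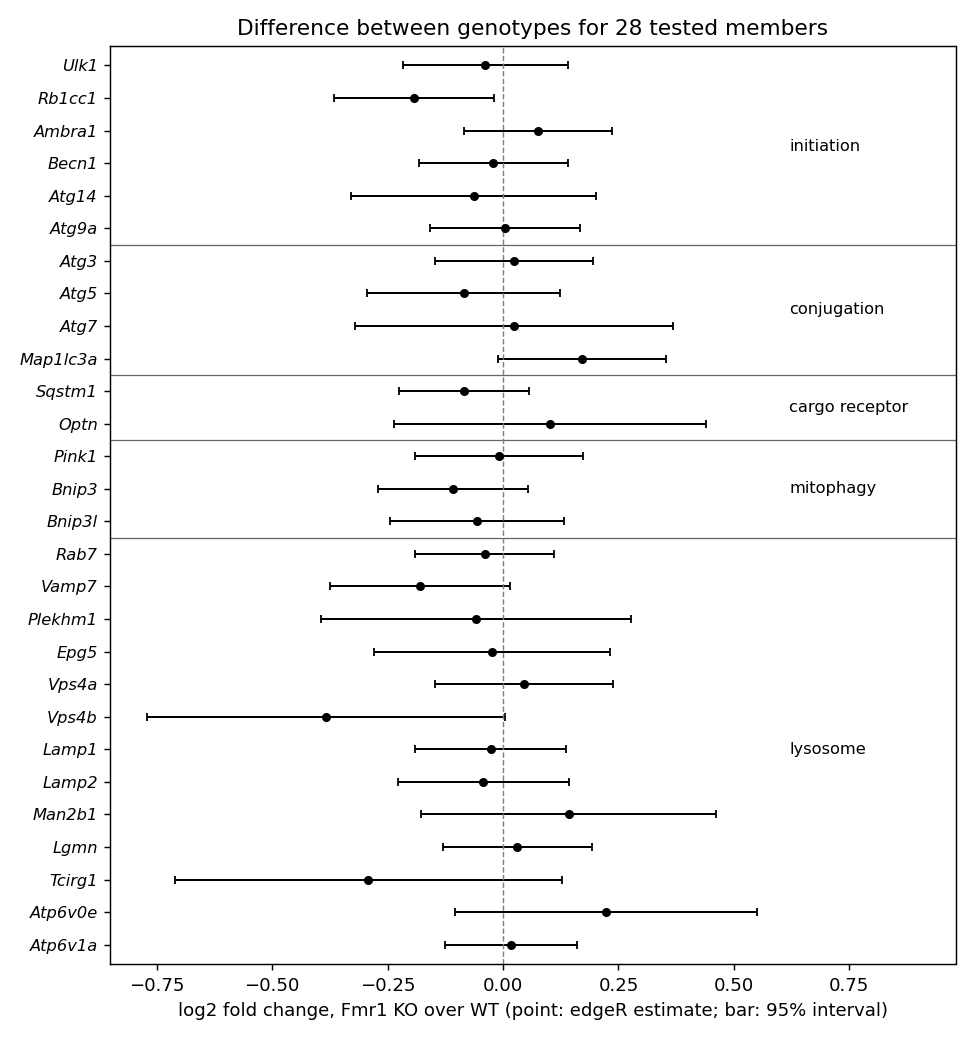
Log2 fold change of *Fmr1* KO over WT (x axis) for each of the 28 tested members (y axis, ordered by role). Points are edgeR estimates and bars are 95% intervals from 3 mice per group, and the interval of *Rb1cc1* is the 1 that does not include 0.

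**Figure D2:**
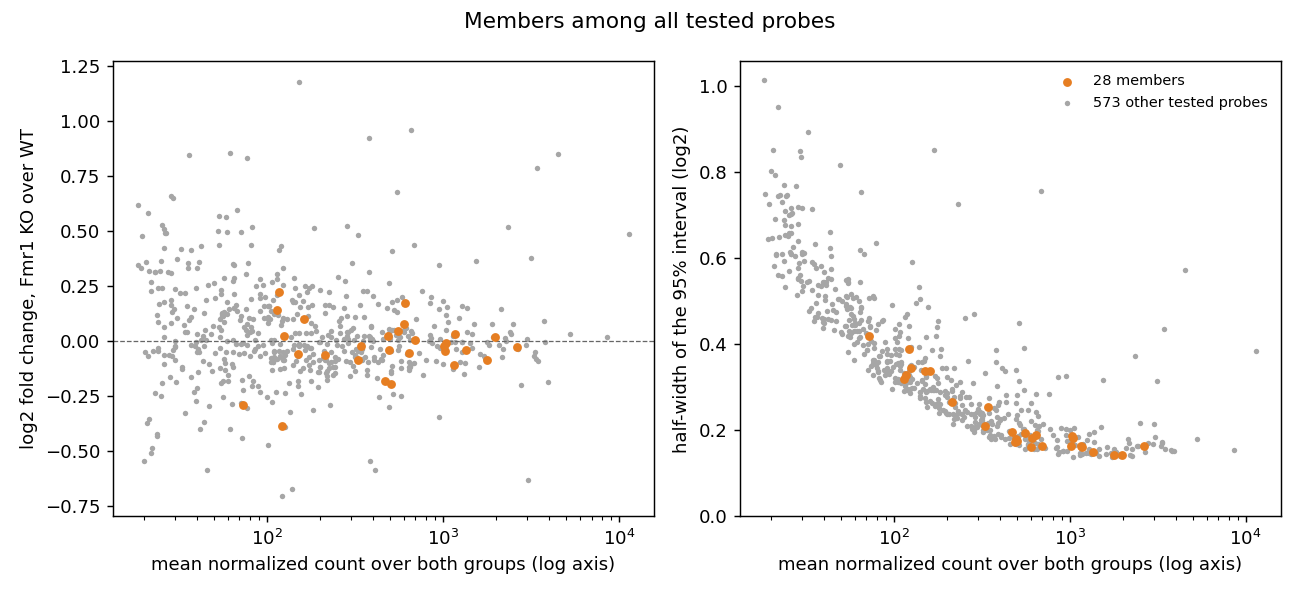
The log2 fold change of *Fmr1* KO over WT (left) and the half-width of its 95% interval (right) against the mean normalized count on a log axis, for 28 members in orange and the other tested probes in grey. The members lie between -0.38 and 0.22, and the intervals widen towards low counts.

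The genes that start autophagosome formation had a median log2 fold change of -0.03, with 2 of 6 above 0 and 4 below. *Rb1cc1* encodes FIP200, the scaffold of the ULK1 kinase complex. Its normalized counts were 452, 457 and 506 in *Fmr1* KO replicates 1 to 3, against 538, 533 and 545 in WT replicates 1 to 3. Every KO mouse was below every WT mouse, and KO replicate 3 lay nearest to the WT mice. The means were 471 ± 29.6 in KO and 539 ± 5.81 in WT (SD, n = 3 each), a ratio of 0.875. The log2 fold change was -0.19 (95% interval -0.37 to -0.02), with an edgeR p of 0.033 that did not pass after adjustment (adjusted p = 0.521). *Rb1cc1* was 38th among the 601 tested probes by p. Without any 1 of WT replicates 1, 2 and 3 or KO replicates 1 and 2, the unadjusted p was no longer under 0.05, while the log2 fold change stayed between -0.25 and -0.16 over all 6 omissions.

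*Ambra1*, which encodes a Beclin 1 partner that also recruits ubiquitin ligases, had 601, 613 and 639.5 normalized counts in *Fmr1* KO, against 601, 592 and 565 in WT. The highest WT value lay just above the lowest KO value, so the groups overlapped. The means were 618 ± 19.7 in KO and 586 ± 18.8 in WT, with a log2 fold change of 0.08 (-0.08 to 0.24, adjusted p = 0.857), which was 0.05 without KO replicate 3 or without WT replicate 3. *Ulk1*, the kinase that FIP200 holds in its complex, averaged 490.3 ± 30.0 in KO and 503 ± 18.5 in WT (log2 fold change -0.04, adjusted p = 0.940). Beclin 1 and ATG14 are subunits of the lipid kinase complex that marks the nascent membrane, and ATG9A is the transmembrane protein that brings membrane to it. *Becn1* (-0.02), *Atg14* (-0.06) and *Atg9a* (0.005) had log2 fold changes within 0.07 of 0 and overlapping groups. In *Atg14* the KO mice spread more widely, at 202, 185 and 242 counts, against 231, 218 and 211 in WT.

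The conjugation genes had a median log2 fold change of 0.02, with 3 of 4 above 0 and 1 below. *Map1lc3a* encodes LC3A, one of the proteins that are attached to the autophagosome membrane. Its normalized counts were 684, 659 and 603.5 in *Fmr1* KO, against 536, 600.0 and 595 in WT. Every KO mouse was above every WT mouse, but KO replicate 3 exceeded WT replicate 2 by under 4 counts. The means were 649 ± 41.1 in KO and 577 ± 35.7 in WT, a ratio of 1.13, and the log2 fold change of 0.17 (-0.01 to 0.35) did not pass the test (adjusted p = 0.614). Such a separation was shared by 1 other member, *Atp6v0e*: KO and WT did not overlap, with KO higher, for 2 of 28 members (7.14%), against 41 of all 601 tested probes (6.82%).

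*Atg5* encodes a protein that, joined to ATG12, promotes the transfer of LC3 to lipid. Its counts were 326, 347 and 289 in *Fmr1* KO, against 353, 338 and 327 in WT. The groups overlapped and KO replicate 3 was the lowest of the 6 mice. The means were 321 ± 29.0 in KO and 339 ± 12.8 in WT, with a log2 fold change of -0.09 (-0.29 to 0.12, adjusted p = 0.883). It was -0.02 without KO replicate 3, -0.14 without KO replicate 2 and -0.06 without WT replicate 1. *Atg3*, the E2-like enzyme of LC3, and *Atg7*, the E1-like enzyme that activates LC3 and ATG12, both had log2 fold changes of 0.02. The interval for *Atg3* ran from -0.15 to 0.20 and that of the lower counted *Atg7* from -0.32 to 0.37.

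**Figure D3:**
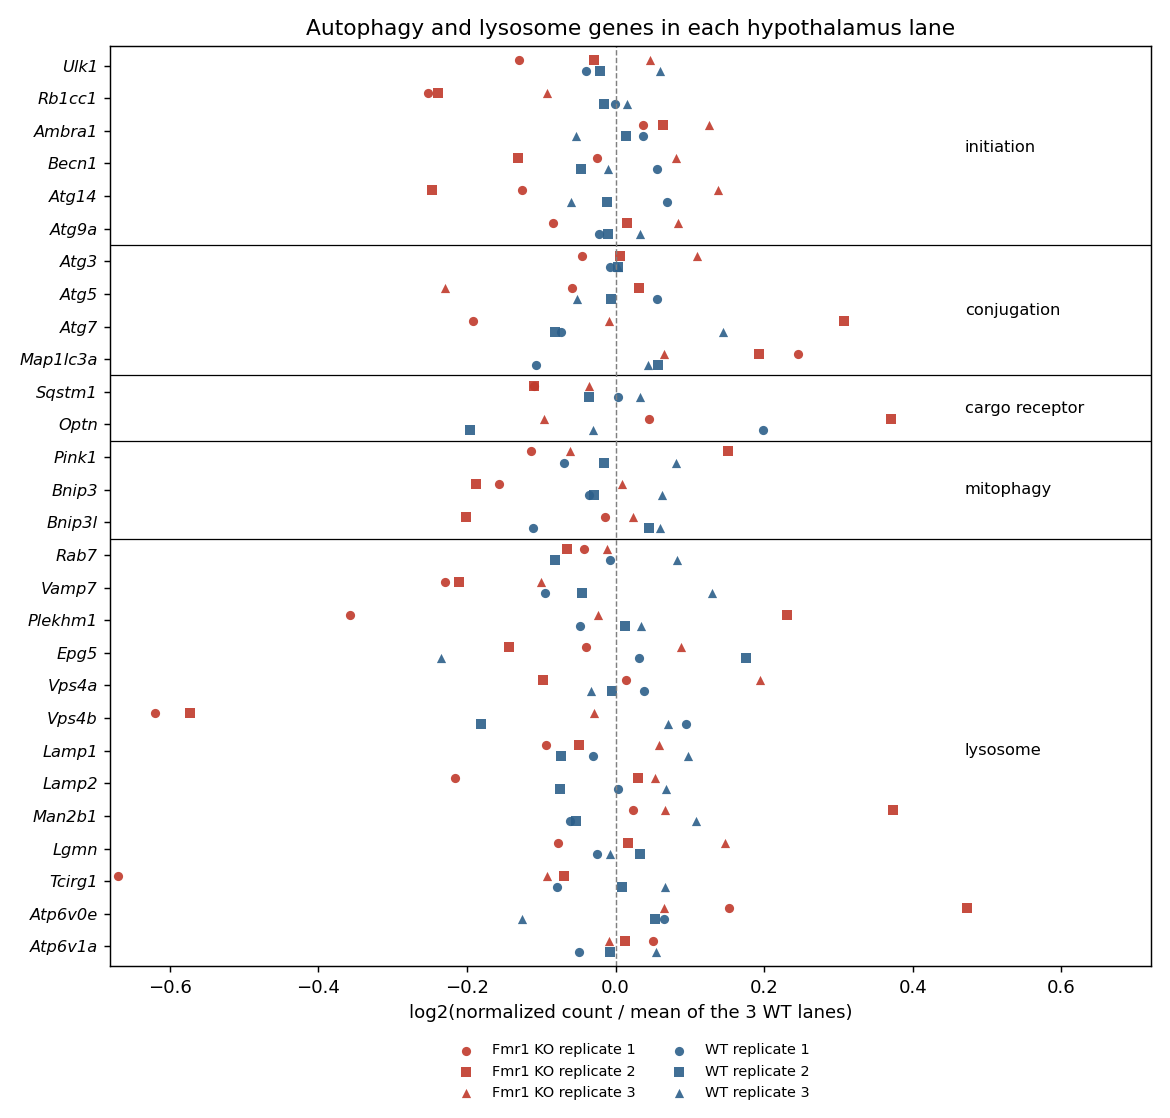
Normalized count of each tested member in each mouse, as log2 of its ratio to the mean of the 3 WT lanes (x axis), ordered by role (y axis). Red symbols are *Fmr1* KO and blue symbols are WT, with circles, squares and triangles for replicates 1, 2 and 3, and the groups of most members overlap.

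*Sqstm1* encodes p62, the cargo receptor that binds ubiquitinated proteins and is itself degraded with them. Its normalized counts were 1702, 1701 and 1790.3 in *Fmr1* KO, against 1839, 1790.0 and 1878 in WT. KO replicate 3 and WT replicate 2 differed by under 1 count, while KO replicates 1 and 2 lay below all WT mice. The means were 1731 ± 51.3 in KO and 1836 ± 44.0 in WT, with a log2 fold change of -0.08 (-0.23 to 0.06, adjusted p = 0.766). *Optn* encodes optineurin, a receptor for ubiquitinated cargo that includes damaged mitochondria. It had 160.2, 201 and 145 counts in KO, against 178, 136 and 152 in WT, so the groups overlapped across most of their range (log2 fold change 0.10, -0.24 to 0.44, adjusted p = 0.928). *Calcoco2*, listed here with the cargo receptors, had raw counts of 7, 10 and 8 in KO, against 7, 10 and 3 in WT. These were at the level of the 74 lowest probes, which averaged between 5.85 and 9.18 raw counts in KO lanes and between 7.31 and 8.19 in WT lanes, and *Calcoco2* is itself 1 of them, since they were defined by a mean raw count under 10. *Calcoco2* was not tested, and negative control probes were not used here.

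All 3 mitophagy genes had log2 fold changes below 0, with a median of -0.06, and none passed the test. BNIP3 and BNIP3L are receptors of the outer mitochondrial membrane that bind LC3 proteins directly and are known to be induced by hypoxia. *Bnip3* had 1074, 1050.5 and 1204 normalized counts in *Fmr1* KO, against 1168, 1173 and 1250.0 in WT. KO replicates 1 and 2 were below all WT mice and KO replicate 3 was within the WT range. The means were 1109 ± 82.5 in KO and 1197 ± 46.0 in WT, with a log2 fold change of -0.11 (-0.27 to 0.05, adjusted p = 0.740), which was -0.17 without KO replicate 3. *Bnip3l* had 647, 568 and 664 counts in KO, against 605, 674 and 681 in WT, with overlapping groups (log2 fold change -0.06, -0.24 to 0.13, adjusted p = 0.930). *Pink1*, the kinase that accumulates on damaged mitochondria, had a log2 fold change of -0.01 (-0.19 to 0.17).

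The 13 tested lysosome genes had a median log2 fold change of -0.03, with 5 above 0 and 8 below. The 6 genes of trafficking and fusion had a median of -0.05, with 1 above 0 and 5 below. *Vps4b* encodes an ATPase that disassembles ESCRT polymers during the sorting of membrane proteins to lysosomes. It had raw counts of 117, 54 and 120 in *Fmr1* KO, against 157, 122 and 157 in WT, which gave normalized counts of 89.7, 92.7 and 135 in KO, against 147, 122 and 145 in WT. KO replicates 1 and 2 were below all WT mice, and KO replicate 3 lay among them. The means were 106 ± 25.4 in KO and 138 ± 14.1 in WT, a ratio of 0.768 and the lowest among the members. The log2 fold change was -0.38 (-0.77 to 0.005), with an adjusted p of 0.602. Leaving out KO replicate 1 brought the log2 fold change to -0.25 and leaving out KO replicate 3 brought it to -0.60, each over 1.5 times from the value over all mice. The ratio was 0.815 without KO replicate 2, the lane with the largest factor. Its paralog *Vps4a* averaged 567 ± 58.5 in KO and 551 ± 13.7 in WT (log2 fold change 0.05, -0.15 to 0.24).

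*Vamp7* encodes a SNARE protein that takes part in fusion with lysosomes. Its normalized counts were 425, 431 and 465 in *Fmr1* KO, against 467, 483 and 546 in WT. Every KO mouse was below every WT mouse, although KO replicate 3 and WT replicate 1 differed by under 3 counts. The means were 440.4 ± 21.4 in KO and 499 ± 41.5 in WT, a ratio of 0.883, with a log2 fold change of -0.18 (-0.37 to 0.02, adjusted p = 0.630). Without WT replicate 3, the highest of the 6 mice, the log2 fold change was -0.11. *Vamp7* and *Rb1cc1* were the 2 of 28 members (7.14%) whose groups did not overlap with KO lower, against 41 of 601 tested probes (6.82%).

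The Rab7 GTPase directs late endosomes and lysosomes, PLEKHM1 links it to the tethering complex, and EPG5 is an effector of Rab7 that tethers autophagosomes. *Rab7* (-0.04, interval -0.19 to 0.11), *Plekhm1* (-0.06, -0.40 to 0.28) and *Epg5* (-0.02, -0.28 to 0.23) had log2 fold changes near 0. *Plekhm1* had 119, 179 and 149.8 counts in *Fmr1* KO, against 147, 153 and 156 in WT, so the WT mice lay inside the spread of the KO mice.

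**Figure D4:**
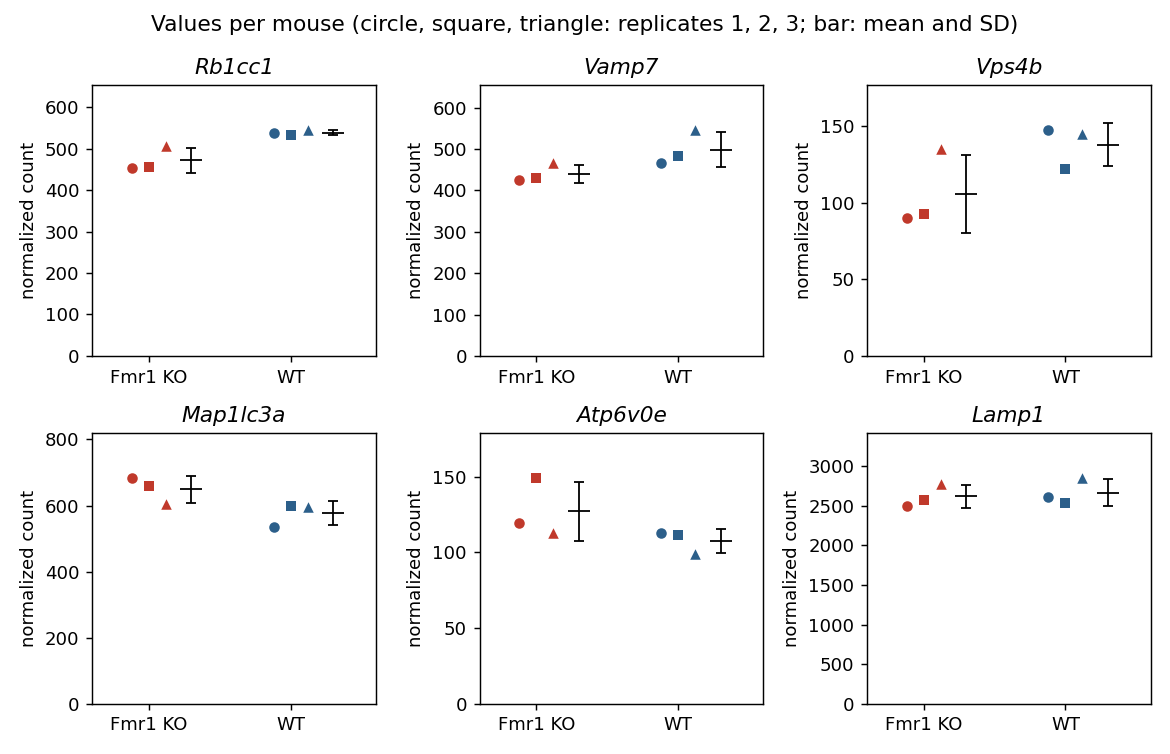
Normalized counts of 6 members in the 3 *Fmr1* KO mice (left, red) and the 3 WT mice (right, blue), with bars for mean and SD. KO mice lie below WT mice in *Rb1cc1* and *Vamp7* and above them in *Map1lc3a* and *Atp6v0e*, while *Vps4b* and *Lamp1* overlap.

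LAMP1 and LAMP2 are the abundant glycoproteins of the lysosomal membrane. *Lamp1*, whose promoter stretch is printed above, had 2500.0, 2576 and 2778 normalized counts in *Fmr1* KO, against 2612, 2536 and 2853 in WT. The groups overlapped, with a log2 fold change of -0.03 and an interval of -0.19 to 0.14. *Lamp2* had a log2 fold change of -0.04 (-0.23 to 0.14). Of the lysosomal hydrolases, *Lgmn*, an asparaginyl endopeptidase, had a log2 fold change of 0.03 (-0.13 to 0.19). *Man2b1*, the lysosomal alpha-mannosidase, had 110.4, 141 and 114 counts in KO, against 104, 105 and 117 in WT (log2 fold change 0.14, -0.18 to 0.46, adjusted p = 0.871). KO replicate 2 was the highest of the 6 mice, and without it the log2 fold change was 0.04.

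The proton pump was represented by *Atp6v1a*, the catalytic subunit of its cytosolic sector, and by *Atp6v0e* and *Tcirg1*, subunits of its membrane sector. *Atp6v0e* had 119.59, 149.33 and 112.60 normalized counts in *Fmr1* KO, against 112.56, 111.63 and 98.64 in WT. The groups did not overlap, but the lowest KO mouse exceeded the highest WT mouse by less than 0.1 count, far below counting error. The means were 127 ± 19.5 in KO and 108 ± 7.78 in WT, a ratio of 1.18, with a log2 fold change of 0.22 (-0.10 to 0.55, adjusted p = 0.740). Without KO replicate 2 the ratio was 1.08 and the log2 fold change 0.11. *Tcirg1* had raw counts of 65, 44 and 66 in KO, against 80, 80 and 90 in WT. Its normalized counts were 49.8, 75.5 and 74.3 in KO, against 75.0, 79.7 and 83.0 in WT, so that KO replicate 1 stood below the other mice and the groups overlapped. The means were 66.6 ± 14.5 in KO and 79.2 ± 3.98 in WT, with a log2 fold change of -0.29 (-0.71 to 0.13, adjusted p = 0.740). Without KO replicate 1 the log2 fold change was -0.08. *Atp6v1a* had 2044, 1991 and 1961 counts in KO, against 1907, 1964 and 2050.2 in WT, with a log2 fold change of 0.02 (-0.12 to 0.16).

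The 9 members with CACGTG in a promoter window had a median log2 fold change of 0.02, with 5 above 0 and 4 below. The 13 tested members with a window that lacked it had a median of -0.04, with 5 above 0 and 8 below. The 6 tested members with no window in the table, which included *Rb1cc1*, *Vamp7* and *Map1lc3a*, also had a median of -0.04. Of the 4 genes with stretches printed above, *Lamp1*, *Atg3* and *Atp6v1a* had log2 fold changes within 0.03 of 0, and *Atp6v0e* had the highest value among the members.

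A ratio of 2 members within a lane does not depend on the lane factor, and 8 such ratios of raw counts were formed after the values had been seen. *Rb1cc1* over *Ulk1*, 2 parts of the same kinase complex, was 0.985, 0.927 and 0.974 in *Fmr1* KO, against 1.102, 1.077 and 1.041 in WT. The ratio was lower in every KO mouse, with means of 0.962 ± 0.031 in KO and 1.07 ± 0.031 in WT. *Vps4b* over its paralog *Vps4a* was 0.161, 0.180 and 0.214 in KO, against 0.260, 0.221 and 0.269 in WT, again lower in every KO mouse although the normalized counts of *Vps4b* alone overlapped. *Vamp7* over *Rab7* was 0.3199, 0.329 and 0.3422 in KO, against 0.3425, 0.3731 and 0.3759 in WT, with the highest KO mouse just below the lowest WT mouse. *Map1lc3a* over *Sqstm1* was 0.402, 0.388 and 0.337 in KO, against 0.291, 0.335 and 0.317 in WT, higher in every KO mouse, with the lowest KO mouse just above the highest WT mouse. The other 4 ratios overlapped between the groups. The pairs were picked from values already seen, and an exact permutation test of 3 against 3 mice could not give a p below 0.1, so no test was made of these ratios. *Rb1cc1*, *Vamp7* and *Map1lc3a* also separated the groups on their own, so their ratios are not a separate result. *Vps4b* had the lowest KO over WT ratio among the members, at 0.768, while *Vps4a* lay at 1.03. The separation of their within-lane ratio is therefore not a separate result either. The share of such ratios over all pairs of probes was not computed.

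**Figure D5:**
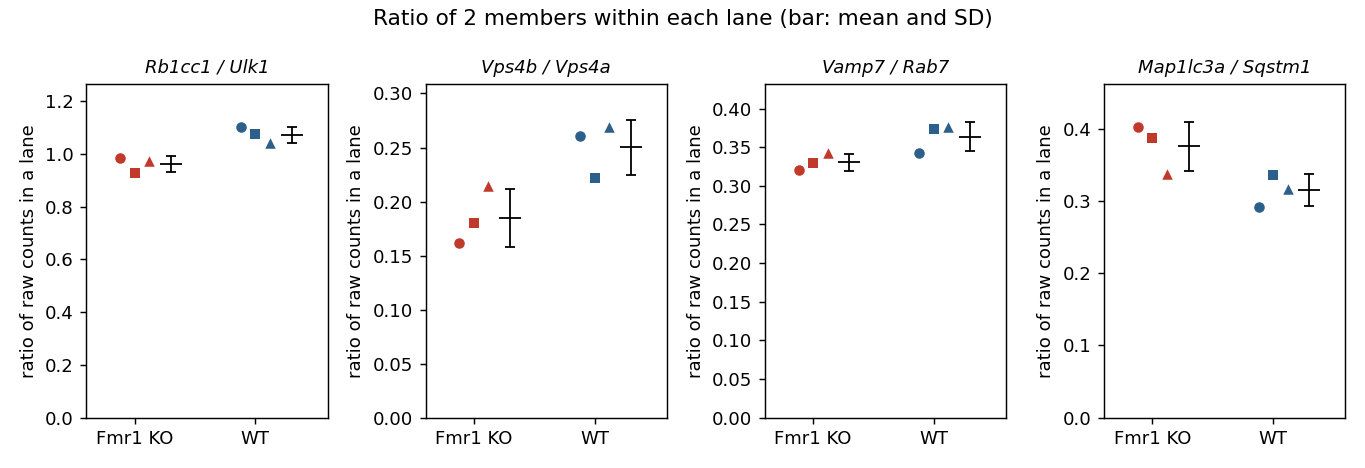
Ratio of raw counts of 2 members within each lane for 4 of the 8 pairs, in *Fmr1* KO (left, red) and WT (right, blue), with circles, squares and triangles for replicates 1, 2 and 3 and bars for mean and SD. The 4 pairs drawn are those whose groups did not overlap, and the pairs were picked after the values had been seen. The first 3 ratios are lower and the last is higher in every KO mouse.

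The KO mice differed among themselves. In 6 of 28 members (21.4%), *Atg14*, *Bnip3*, *Rb1cc1*, *Sqstm1*, *Vamp7* and *Vps4b*, KO replicates 1 and 2 were both below all WT mice, against 75 of 601 tested probes (12.5%). In 2 members (7.14%), *Atp6v0e* and *Map1lc3a*, both were above all WT mice, against 57 of 601 tested probes (9.48%). KO replicate 3 lay nearer to the WT mean than either other KO mouse in 7 of these 8 members (87.5%), *Atg14* being the exception, against 74 of the 132 tested probes of that kind (56.1%). Over all members this held in 12 of 28 (42.9%), against 214 of 601 tested probes (35.6%). These counts were made after the values had been seen and were not tested. Other pairs of KO mice were not counted in this way. The 8 members were picked by KO replicates 1 and 2 lying outside the WT range, which itself favours replicate 3 being nearest.

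Relative to the WT mean, the median member stood at -0.08, -0.01 and 0.04 on the log2 scale in *Fmr1* KO replicates 1 to 3, against -0.01, -0.01 and 0.04 in WT replicates 1 to 3. For the median of all tested probes these values were -0.09, 0.11 and 0.02 in KO, against -0.01, -0.04 and 0.04 in WT. KO replicate 1 was the lowest of the 6 lanes in 13 of 28 members (46.4%), against 36.6% of all tested probes. WT replicate 3 was the highest in 11 members (39.3%), against 21.6% of all tested probes, and KO replicate 2 in 6 members (21.4%), against 36.4%. Among the 7 members under 200 counts, KO replicate 2 was the highest lane in 5, and the share for all probes at that level was not computed. The 74 lowest probes were also highest in that lane after scaling, with a mean of 15.75 against 6.51 to 7.68 in the other lanes. The coefficient of variation of a member had a median of 7.99% in KO and 4.71% in WT, where counting error alone gives a median of 4.75% in KO and 4.18% in WT. It was above counting error in 24 of 28 members in KO and in 15 of 28 in WT.

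The other genes of the route on the panel, 12 of them tested, had log2 fold changes with a median of -0.05, with 4 above 0 and 8 below, and 0 of 12 had an unadjusted p under 0.05, against 51 of the 601 tested probes (8.49%). *Cd68*, a lysosomal glycoprotein of microglia and macrophages, had 37.6, 39.5 and 43.9 normalized counts in *Fmr1* KO, against 28.1, 33.9 and 32.3 in WT. Every KO mouse was higher, but the interval of the log2 fold change of 0.35 ran from -0.11 to 0.82 (adjusted p = 0.726). *Sesn1*, a leucine-sensing brake on the mTORC1 kinase that holds autophagy back, had 335, 429 and 436 counts in KO, against 353, 352 and 314 in WT. KO replicate 1 lay among the WT mice, and the log2 fold change of 0.23 (-0.02 to 0.48) did not pass (adjusted p = 0.630). *Ctss*, a cathepsin of microglia, was chosen after its values were seen. It had 355, 355 and 386.2 counts in KO, against 387.4, 391 and 394 in WT, narrowly lower in every KO mouse. The log2 fold change was -0.10 (-0.28 to 0.09, adjusted p = 0.803). Over all tested probes, groups did not overlap in 6.82% with KO higher and in 6.82% with KO lower.

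Fewer cells of a type and less RNA per cell cannot be told apart in RNA from a whole hypothalamus. All 15 probes of the list of hypothalamic marker genes, mostly neuropeptides, were tested, and the lowest of them, *Kiss1*, had a mean raw count of 46.5. Of these 15, 7 had log2 fold changes above 0 and 8 below, with a median of -0.03, 9 had an unadjusted p under 0.05 and 2 passed the adjusted p. Over all 601 tested probes, 8.49% had an unadjusted p under 0.05 and 0.832% passed the adjusted p. Their summed normalized counts ranged from 13158.5 to 20424 in *Fmr1* KO and from 13301 to 13444 in WT. The 11 tested oligodendrocyte markers, of 15 listed, had log2 fold changes above 0, with a median of 0.52, all 11 with an unadjusted p under 0.05 and 1 past the adjusted p. Their summed normalized counts ranged from 17226 to 24207 in *Fmr1* KO and from 12781 to 19759 in WT. The 12 tested microglia markers had a median of -0.08 (3 above 0), with sums of 1707 to 1955 in KO and 1819 to 2064 in WT. Astrocyte markers (5 tested, median -0.09) summed to 7554 to 8293 in KO and 8573 to 9178 in WT. Of these 5, 2 had an unadjusted p under 0.05 and 0 passed the adjusted p. Neuron markers (5 tested, median 0.08) summed to 8802 to 9108 in KO and 8203 to 8932 in WT, and endothelial markers (6 tested, median 0.14) to 629 to 806 in KO and 625 to 808 in WT. *Prl*, a pituitary hormone gene, had raw counts of 4, 6 and 9 in KO, against 123, 6 and 1626 in WT, with WT replicates 1 and 3 far above the other lanes. The part of these differences in the values of the autophagy and lysosome genes was not tested.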

How the data were processed

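Hypothalamic RNA of 3 *Fmr1* KO and 3 WT females was hybridized to the nCounter Mouse Neuroinflammation Panel with added hypothalamic probes. The deposited raw table holds counts per probe and lane, not normalized, exported by the authors with nSolver. A further column of the authors, the percent of samples above a threshold, covers other lanes too and was not used. The authors' value table holds a signal that is the raw count times 1 factor per lane, which the methods base on 7 housekeeping genes, never below 1. No genome alignment is involved.

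Groups follow the genotype labels. Titles number the mice 1 to 3 in each genotype and name no shared litter or day. The p-values weigh the difference between groups against the spread between these mice, which edgeR moderates over all tested probes. Probes were named by RefSeq accession (772) or by the table (15). No 2 lanes differed by less than counting noise (chi-square over its degrees of freedom at least 2.72).

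Raw counts above 20 in at least 3 of 6 lanes were fitted with edgeR 4.0.16 (estimateDisp, glmQLFit, glmQLFTest) in R 4.3.3, with lane sizes from the authors' factors. The standard error is the size of the log2 fold change over the square root of F, and intervals use the t distribution at the fit's degrees of freedom. The fit was tested on counts simulated from its own model and dispersions, which does not show how well that model suits these lanes. Counting errors cover counting alone.

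Members and gene lists were chosen with earlier results of these data known. Every member was named. Values per mouse were given for the 2 members with the smallest p in each of the 5 groups, for members whose groups did not overlap or that were not tested, and for the gene with the smallest p in each list of other pathway genes. One such gene is not reported here. Further values per mouse were chosen after they were seen.

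Alternatives used TMM scaling, median-ratio scaling, no filter on low counts, a filter at a mean count of 50, DESeq2 1.42.0, limma 3.58.1 with pseudocounts of 1 and 10, the methods' t-test, the authors' value table, background subtraction, the replicate block and each mouse left out.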

Additional observations from a re-analysis of the deposited data

How the results depend on the processing

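Under 17 alternatives, no member passed an adjusted p of 0.05, with the smallest adjusted p of a member between 0.346 and 0.877. The number of members at an unadjusted p under 0.05, 1 in the fit described above (*Rb1cc1*), was 3 with TMM scaling, 3 with median-ratio size factors, 2 with no filter, 2 with limma at either pseudocount, 2 with the authors' value table and 2 after background subtraction, and 0 with DESeq2. All of these lay below 0, and *Rb1cc1* was among them wherever the count was above 0. It was 1 with the methods' t-test and with a mean count of at least 50. With 1 mouse left out it ranged from 0 to 5. It was 0 without WT replicate 1, WT replicate 3, KO replicate 1 or KO replicate 2, and 1 without WT replicate 2, where the gene was *Vps4b*. It was 5 without KO replicate 3, with *Rb1cc1*, *Bnip3*, *Vamp7* and *Vps4b* lower and *Map1lc3a* higher in *Fmr1* KO. The cause was not tested.

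The median log2 fold change of the members lay between -0.04 and -0.03 with all mice and between -0.06 and 0.01 with 1 mouse left out. Over all tested probes, 5 passed the adjusted p, against 10 without KO replicate 2, 11 without WT replicate 3, 2 without WT replicate 1 or KO replicate 3, 3 without KO replicate 1, with the replicate block or with a mean count of at least 50, and 0 with the methods' t-test.

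Of 476 alternative values of single members, 448 kept their direction and 28 changed sign, and 11 of 28 members never did. *Atg9a* was at -0.0065 with TMM scaling and -0.012 with median-ratio size factors. The other changes came with 1 mouse left out, where the log2 fold changes ranged from -0.18 to 0.0054 in *Atg14*, -0.022 to 0.061 in *Atg3*, -0.10 to 0.14 in *Atg7*, -0.037 to 0.051 in *Atg9a*, -0.0060 to 0.047 in *Atp6v1a*, -0.074 to 0.028 in *Becn1* and -0.11 to 0.0047 in *Bnip3l*. They ranged from -0.13 to 0.072 in *Epg5*, -0.072 to 0.024 in *Lamp1*, -0.095 to 0.042 in *Lamp2*, -0.032 to 0.086 in *Lgmn*, -0.021 to 0.21 in *Optn*, -0.088 to 0.045 in *Pink1*, -0.19 to 0.096 in *Plekhm1*, -0.079 to 0.0037 in *Rab7*, -0.083 to 0.011 in *Ulk1* and -0.036 to 0.10 in *Vps4a*.

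With the replicate block, 2 members had an unadjusted p under 0.05 (*Rb1cc1* and *Vps4b*) and none passed after adjustment. Mice share only a number: the deviations of same-numbered KO and WT mice correlated at -0.06, -0.08 and 0.10 over the tested probes. Depth limits the low members most: the median SE was 0.15 for the 7 members under 200 counts and 0.07 for the 16 members at 500 or more.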
